A study of Mus musculus with 35 samples.

Results

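The marker genes described here are 35 in number, 19 of neutrophils and 16 of monocytes and interstitial macrophages, measured in mouse lung 24 h after a nanomaterial was instilled into the trachea. Their probes were chosen by accession: every probe whose RefSeq accession belongs to 1 of the 35 symbols was taken, on all 35 arrays. This gave 46 of the 55681 probes on the array, for 33 of the 35 genes. After a filter on dim probes, 42 probes of 31 genes were tested, 18 neutrophil genes and 13 monocyte or macrophage genes, among 25534 tested features. Ly6c2 and Cd68 had no probe by this rule. Mmp25, whose probe lay well above background on 3 arrays of 35, and Ccr1, on 0 of 35, were not tested.

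The mice were female C57BL/6 of 5 to 7 weeks, and no allele or transgene is named for any group. Each received 40 µl once, holding 18 or 54 µg of 1 of the materials known by the codes NRCWE-043, NRCWE-044 and NRCWE-045, and the controls received 0 µg. What the control liquid held is not stated in the sources used here. The 7 groups have 5 arrays each, made from random pieces of lung, and the series title gives its purpose as ranking how strongly the materials perturb pathways in the lung. Whether each array stands for its own mouse is not said in the labels. The p-values therefore rest on the spread among the samples of a group, part of which may be technical.

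Neutrophils and monocytes are made in the bone marrow and leave the blood for the lung within hours of an irritant reaching the airways. Neutrophils follow CXC chemokines through the receptor Cxcr2, carry preformed granules and kill with an oxidase. Monocytes leave the marrow through Ccr2, and in tissue they become macrophages that bind opsonised particles and microbial products through Fc and pattern recognition receptors.

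Values are log2 ratios of lung RNA, labelled with Cy5, to a reference RNA of 11 mouse cell lines, labelled with Cy3, so a level of 0 means equal signal in both and levels of different genes cannot be set against each other. In Cy5, 42.8 to 69.3% of the probes on an array lay well above background. A gene was called where limma's p-value, adjusted by the Benjamini-Hochberg method over all 25534 features, was under 0.05. Markers of lung itself had a mean log2 ratio of 5.82 to 7.35 on every array, while markers of fat and of heart muscle varied within groups. The 7 adipose markers averaged 4.85 and 4.56 on replicates 4 and 34 of NRCWE-044 at 54 µg and 4.17 and 3.01 on replicates 9 and 19 of NRCWE-043 at 54 µg, against 0.75 to 2.69 elsewhere. The 8 heart muscle markers ran from -0.34 to 2.38, highest on control replicate 29, and stood at 1.89 and 1.96 on replicates 4 and 18 of NRCWE-044 at 54 µg. They were as high on 4 other arrays, at 2.31 on control replicate 2, 2.32 on replicate 23 of NRCWE-044 at 18 µg, 2.14 on replicate 13 of NRCWE-045 at 18 µg and 1.92 on replicate 32 of NRCWE-045 at 54 µg. Counts for the NRCWE-043 and NRCWE-044 groups at 54 µg are also given without the arrays named for them.

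At 54 µg, markers of both kinds rose with NRCWE-043 and with NRCWE-044, and 1 gene rose with NRCWE-045. With NRCWE-043, where 10.2% of all features were called, 5.33% higher and 4.88% lower, 7 of 18 neutrophil genes rose and 2 fell, and 7 of 13 monocyte or macrophage genes rose and 1 fell (6 and 1 of 12 without Msr1, whose probe was mostly at background in controls). Among these falls, those of Itgam and Ms4a4c rest on the brightest probe alone. Other probes of both genes rose, as described with the probes. With NRCWE-044, where 5.95% were called, 3.92% higher and 2.02% lower, 4 neutrophil genes rose and 1 fell, and 5 monocyte or macrophage genes rose. Each of these 4 neutrophil rises ended when some single array was left out. With NRCWE-045, where 0.325% were called, 0.29% higher and 0.0352% lower, Ms4a6d was the 1 member called. In whole lung, more cells of a type and more RNA per cell cannot be told apart.

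The middle of each list lay further from control than the middle of all features. The median change of the neutrophil genes was 0.50 with NRCWE-043, 0.39 with NRCWE-044 and 0.13 with NRCWE-045 on the log2 scale, and that of the monocyte and macrophage genes was 0.86, 0.47 and 0.15, against 0.01, 0.00 and 0.01 over all features. The monocyte and macrophage medians include Msr1. Both lists were chosen with earlier results of these data known, so the medians are descriptions and no test. With 1 array left out at a time, the NRCWE-045 medians ran from 0.03 to 0.26 for neutrophil genes and from 0.05 to 0.24 for the others. All 9 members that rose with NRCWE-044 also rose with NRCWE-043, where they made up 64.3% of 14. Both comparisons use the same 5 control arrays, so this overlap is a count and no test. The 9 were Ncf4, Clec4d, Clec4e and Retnlg among neutrophil genes and Ccr2, Cd14, Fcgr1, Ms4a6d and Plac8 among the others.

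**Figure D1:**
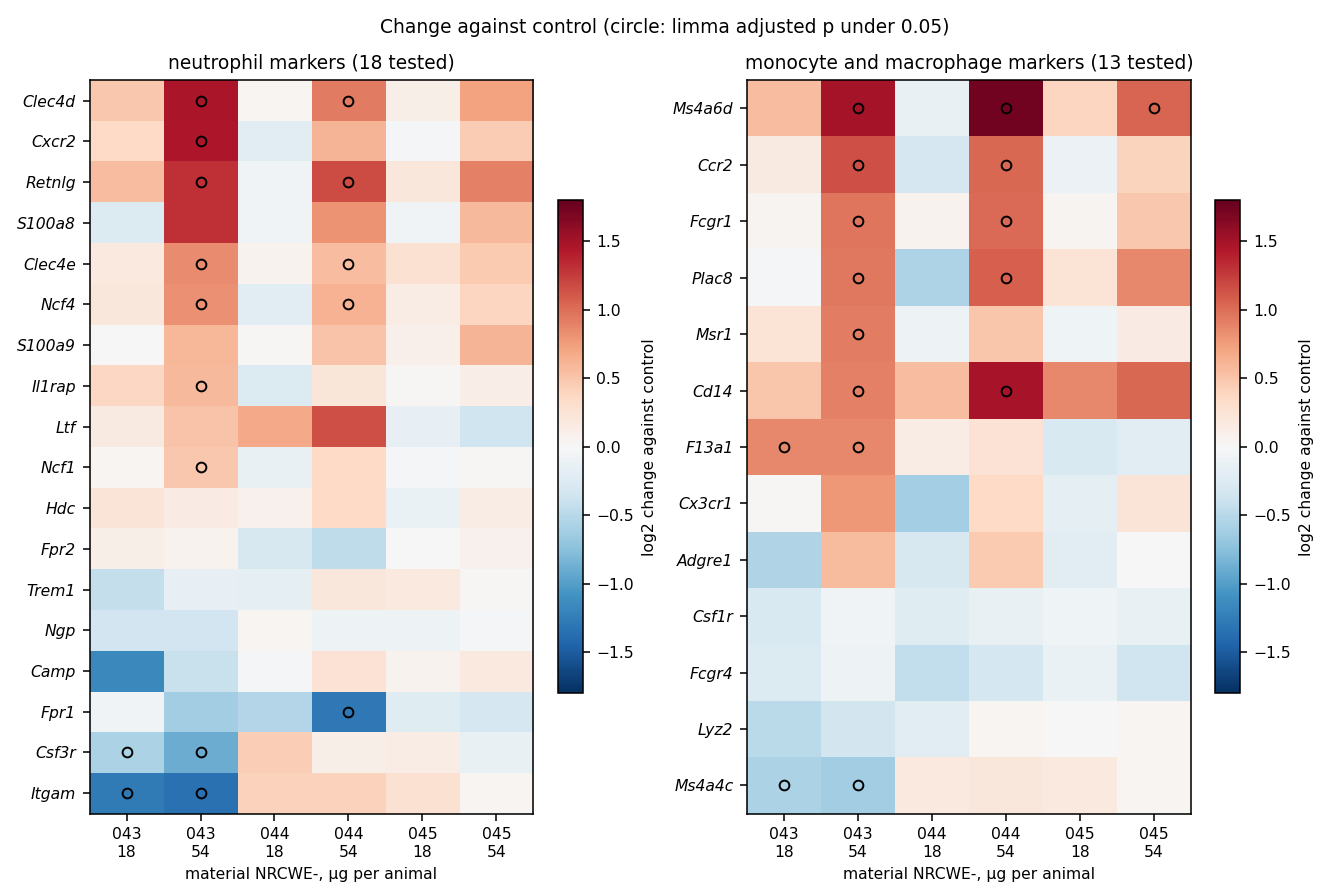
Change of each tested member against control on the log2 scale, in colour, for 6 treated groups of 5 arrays named by material and µg per animal; circles mark a limma adjusted p under 0.05. Circles gather in the columns of NRCWE-043 and NRCWE-044 at 54 µg, where 17 and 10 members were called, and Ms4a6d is the 1 circle for NRCWE-045.

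Single arrays bore on some of these counts. With NRCWE-043 at 54 µg, 7 of the 9 neutrophil calls and 6 of the 8 others held whichever array was left out; without replicates 9 and 19 together, 6 neutrophil and 7 monocyte or macrophage genes were called. With NRCWE-044 at 54 µg, 1 of 5 neutrophil calls held against every omission, and this was the fall of Fpr1. The other 4, the rises of Ncf4, Clec4d, Clec4e and Retnlg, each ended without some array. The neutrophil count was 3 without control replicate 2 and 2 without control replicate 15. It was 2 without replicate 4 and 1 without replicate 34 of NRCWE-044. All 5 of its monocyte and macrophage calls held whichever array was left out. Without its replicates 4, 18 and 34 together, 0 neutrophil genes and 2 others, Cd14 and Ms4a6d, were called. This leaves 2 arrays in the group, and the part of fat and heart tissue in the calls was not tested. The normalization bore on the counts more than any array did. With each array centred on its median in place of loess, 3 neutrophil and 3 other genes were called with NRCWE-043 at 54 µg. With NRCWE-044 the counts were 0 and 1, and with NRCWE-045 0. The share of all features called under this setting is not given here, so these counts do not show a loss particular to members. After loess, each array's log2 ratios were also multiplied by a factor that gave all arrays the same median. With this factor 0 members were called in any comparison, among 0 to 3 features of all in these 3. The factor moves a gene the more its log2 ratio lies from 0, so this setting cannot show how firm the calls are.

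Among receptors that guide neutrophils, Cxcr2, the receptor for CXC chemokines, rose with NRCWE-043. Its log2 ratios were 0.43, 1.04, 0.22, 1.06 and 0.39 on the controls and 1.98, 2.07, 1.97, 1.82 and 2.57 with NRCWE-043 at 54 µg. They were 1.22, 1.12, 0.52, 1.22 and 2.14 with NRCWE-044 and 0.72, 1.44, 0.93, 1.52 and 0.83 with NRCWE-045 at 54 µg. All 5 arrays of NRCWE-043 lay above every control, whereas the other materials overlapped the controls. The change was 1.45 (SE 0.22, adjusted p = 7.8e-05) with NRCWE-043, a 2.74-fold difference, and 0.61 (SE 0.22, adjusted p = 0.1) and 0.46 (SE 0.22, adjusted p = 0.52) with NRCWE-044 and NRCWE-045, which were not called. The lower dose gave 0.45, 1.58, 0.60, 1.03 and 1.29 with NRCWE-043, 0.53, 0.46, 0.33, 0.36 and 0.43 with NRCWE-044 and 0.40, 0.48, 0.89, 0.51 and 0.67 with NRCWE-045, and each of these groups overlapped the controls.

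Csf3r, the receptor for granulocyte colony-stimulating factor, moved the other way with NRCWE-043. The controls gave 1.89, 1.39, 1.61, 1.46 and 1.94, NRCWE-043 gave 1.47, 1.16, 0.82, 0.98 and 1.00 at 18 µg and 0.72, 0.87, 0.72, 0.62 and 0.85 at 54 µg. At 54 µg every array lay under every control, and the fall was -0.90 (SE 0.14, adjusted p = 7.8e-05). At 18 µg it was -0.57 (SE 0.14, adjusted p = 0.013), with overlap, and this call ended without control replicate 2 (adjusted p = 0.054) or control replicate 30 (adjusted p = 0.072). The other materials overlapped the controls at both doses. NRCWE-044 gave 1.83, 2.65, 1.89, 2.14 and 1.95 at 18 µg and 1.58, 1.88, 1.51, 1.80 and 2.07 at 54 µg. NRCWE-045 gave 1.74, 1.74, 1.82, 1.61 and 2.04 at 18 µg and 1.36, 1.42, 1.66, 1.72 and 1.40 at 54 µg. The mean with NRCWE-044 at 18 µg was 2.09, against 1.66 in controls. None of these 4 groups was called against control. Csf3r has 1 tested probe, so no second probe could be compared.

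The formyl peptide receptors Fpr1 and Fpr2 sense bacterial and mitochondrial peptides. Fpr1 was 3.38 ± 0.27 (SD, n = 5) in controls and 2.09 ± 0.44 (SD, n = 5) with NRCWE-044 at 54 µg, where every array lay under every control, and it fell there by 1.29 (SE 0.30, adjusted p = 0.0079). Its change with NRCWE-043 at 54 µg was -0.62 (SE 0.30, adjusted p = 0.21), not called. Fpr2 was called in none of the 6 comparisons with control, at 0.06, -0.46 and 0.08 with the 3 materials at 54 µg. Il1rap, the shared subunit of the interleukin 1 receptors, rose with NRCWE-043 at 54 µg by 0.59 (SE 0.13, adjusted p = 0.0023) without overlap, from 0.24 ± 0.31 to 0.83 ± 0.14 (SD, n = 5 each).

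Clec4d and Clec4e encode paired C-type lectin receptors of myeloid cells that recognise microbial glycolipids and, for Clec4e, products of dying cells. They are neighbours on chromosome 6, and both rose with NRCWE-043 and NRCWE-044 at 54 µg. With the factor to a common median the NRCWE-044 changes turned to -0.10 for Clec4d and -1.10 for Clec4e. Both genes lay far under 0, at -2.97 and -3.34 in controls, where such a factor by itself moves a value. These turned signs can therefore not be read as a direction. Their promoters are shown because the genes adjoin and were called in the same comparisons. Each window spans the start of its gene, from RefSeq on GRCm38.p6, with capitals for matches on either strand to GAGGAA, a core that the myeloid factor PU.1 binds, and to TTGCNNAA, a C/EBP core. The Clec4d window is chr6:123261857-123262156 on the plus strand and the Clec4e window is chr6:123289822-123290121 on the minus strand.
Clec4d: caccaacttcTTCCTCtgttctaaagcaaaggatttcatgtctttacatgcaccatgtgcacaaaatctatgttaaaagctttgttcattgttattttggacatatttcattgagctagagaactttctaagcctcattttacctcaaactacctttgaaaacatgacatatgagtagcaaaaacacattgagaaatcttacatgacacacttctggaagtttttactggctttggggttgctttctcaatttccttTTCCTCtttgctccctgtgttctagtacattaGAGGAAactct
Clec4e: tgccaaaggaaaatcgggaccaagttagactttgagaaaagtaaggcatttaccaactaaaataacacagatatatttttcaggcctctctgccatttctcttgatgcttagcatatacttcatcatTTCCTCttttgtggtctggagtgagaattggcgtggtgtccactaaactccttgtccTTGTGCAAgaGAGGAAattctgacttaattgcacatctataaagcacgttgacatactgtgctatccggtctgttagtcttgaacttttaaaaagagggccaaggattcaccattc
The Clec4d window holds 3 matches to GAGGAA and 0 to TTGCNNAA, and the Clec4e window holds 2 and 1. Of the 9 members called with both materials, 6 have a promoter in the table, and 4 of these 6 hold GAGGAA and 3 hold TTGCNNAA. Of all 31 tested members, 25 have an entry and 14 hold GAGGAA, 6 TTGCNNAA. Over all 32851 promoters of this length 28.3% hold GAGGAA and 10.8% hold TTGCNNAA. Genes can have several promoters, and a gene was counted if any of its windows held the motif. The shares over all promoters count single windows, so the 2 cannot be set against each other. A match is a description of the letters only.

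Clec4d gave -3.24, -2.89, -3.27, -2.44 and -3.01 on the controls and -1.98, -1.80, -1.66, -0.83 and -1.22 with NRCWE-043 at 54 µg. With NRCWE-044 at 54 µg it gave -1.51, -2.31, -1.87, -2.87 and -1.60, and with NRCWE-045 -2.43, -1.87, -2.44, -1.85 and -2.65. All NRCWE-043 arrays exceeded all controls, and the other materials overlapped them. The changes were 1.47 (SE 0.23, adjusted p = 8.9e-05) with NRCWE-043, 0.94 (SE 0.23, adjusted p = 0.011) with NRCWE-044 and 0.72 (SE 0.23, adjusted p = 0.18) with NRCWE-045, the last not called. The NRCWE-044 call ended without its replicate 34 (adjusted p = 0.053). The values at 18 µg were -2.23, -2.09, -2.86, -2.66 and -2.63 with NRCWE-043, -2.97, -2.76, -2.87, -2.89 and -3.15 with NRCWE-044 and -2.56, -3.01, -2.51, -3.38 and -2.82 with NRCWE-045, called in none of the 3. Clec4e rose by 0.85 (SE 0.16, adjusted p = 4.5e-04) and 0.56 (SE 0.16, adjusted p = 0.026) with NRCWE-043 and NRCWE-044, in both without overlap. Its NRCWE-044 call ended without control replicate 15 or its own replicates 4, 24 or 34 (adjusted p from 0.055 to 0.094). Trem1, an amplifying receptor of the same cells, was not called against control, at -0.15, 0.21 and 0.02 with the 3 materials at 54 µg.

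Itgam encodes CD11b, the integrin with which neutrophils and monocytes adhere. On its brightest probe the controls gave 2.39, 1.05, 1.90, 1.73 and 2.94, and NRCWE-043 gave 0.84, 0.62, 0.56, 0.88 and 0.77 at 18 µg and 0.82, 0.85, 0.38, 0.52 and 0.75 at 54 µg. Both doses lay wholly under the controls, with changes of -1.27 (SE 0.22, adjusted p = 6.4e-04) and -1.34 (SE 0.22, adjusted p = 1.3e-04). NRCWE-044 gave 2.13, 2.78, 2.25, 2.65 and 2.32 at 18 µg and 2.20, 2.40, 2.24, 2.82 and 2.42 at 54 µg, and NRCWE-045 gave 2.28, 2.01, 2.34, 2.07 and 2.66 and 1.65, 1.80, 2.21, 2.60 and 1.90. These 4 groups overlapped the controls and were not called. The other probes of Itgam did not show this fall, as described with the probes.

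Ncf1 and Ncf4 encode p47phox and p40phox, cytosolic subunits of the phagocyte oxidase. Ncf4 rose with NRCWE-043 by 0.82 (SE 0.18, adjusted p = 0.0028) without overlap and with NRCWE-044 by 0.63 (SE 0.18, adjusted p = 0.029) with overlap. The second call ended without control replicates 2, 15 or 30 or its own replicates 4 or 34 (adjusted p from 0.06 to 0.13). Ncf1 rose with NRCWE-043 by 0.49 (SE 0.13, adjusted p = 0.014) without overlap, a call that ended without replicate 19 of that group (adjusted p = 0.061), and its change with NRCWE-044 was 0.36 (SE 0.13, adjusted p = 0.1).

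S100a8 and S100a9 encode the subunits of calprotectin, an abundant cytosolic protein of neutrophils. S100a8 gave 1.02, 2.04, 0.39, 2.00 and 3.51 on the controls, a spread wide enough to overlap all groups, and 2.97, 2.94, 3.10, 3.18 and 3.33 with NRCWE-043 at 54 µg. It gave 2.50, 2.15, 3.26, 1.81 and 3.29 with NRCWE-044 and 1.39, 2.36, 2.30, 3.59 and 2.27 with NRCWE-045 at 54 µg. Control replicate 30 was above every NRCWE-043 array and the other 4 controls were below them. The change with NRCWE-043 was 1.31 (SE 0.44, adjusted p = 0.0505) and was not called, while without control replicate 30 the adjusted p was 0.0092. With 18 µg S100a8 gave 1.13, 1.16, 1.51, 1.85 and 2.08 with NRCWE-043, 0.49, 3.16, 1.37, 2.11 and 1.50 with NRCWE-044 and 1.55, 1.00, 2.20, 2.23 and 1.65 with NRCWE-045, with changes from -0.25 to -0.06.

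S100a9 gave 5.28, 6.34, 5.04, 6.72 and 6.88 on the controls and, at 54 µg, 6.23, 6.28, 6.57, 7.14 and 7.04 with NRCWE-043, 6.22, 6.09, 6.70, 6.55 and 7.29 with NRCWE-044 and 5.79, 6.35, 6.87, 7.50 and 6.79 with NRCWE-045. Every group overlapped the controls. Its changes at 54 µg were 0.60 (SE 0.34, adjusted p = 0.3), 0.52 (SE 0.34, adjusted p = 0.43) and 0.61 (SE 0.34, adjusted p = 0.62), none of them called. At 18 µg it gave 6.01, 5.82, 5.69, 6.33 and 6.40 with NRCWE-043, 5.69, 6.86, 5.68, 6.50 and 5.61 with NRCWE-044 and 5.88, 5.26, 6.53, 6.67 and 6.37 with NRCWE-045.

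Genes of the granules, which neutrophils make in the marrow before release, were not called. Camp, the cathelicidin, ranged from 0.16 to 4.45 on the controls alone and changed by -0.40 (SE 0.82, adjusted p = 0.84), 0.26 (SE 0.82, adjusted p = 0.92) and 0.17 (SE 0.82, adjusted p = 0.98) with the 3 materials at 54 µg. The changes of Ngp were -0.34, -0.09 and -0.04, and those of Ltf, lactoferrin, 0.51, 1.16 and -0.36. The SE was 0.82 for Camp and 0.58 for Ltf, and even the Ltf change of 1.16 was not called (adjusted p = 0.26). Retnlg, a resistin-like secreted protein of mature neutrophils, did rise, by 1.32 (SE 0.36, adjusted p = 0.016) with NRCWE-043 and 1.17 (SE 0.36, adjusted p = 0.046) with NRCWE-044, from 1.92 ± 0.95 (SD, n = 5) in controls, with overlap in both. The first call ended without control replicates 2 or 15 (adjusted p 0.051 and 0.076), and the second without control replicates 2, 7 or 15 or its own replicates 4, 18 or 34 (adjusted p from 0.073 to 0.18). Hdc, histidine decarboxylase, which neutrophils share with mast cells and basophils, changed by 0.15, 0.36 and 0.14, not called.

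**Figure D2:**
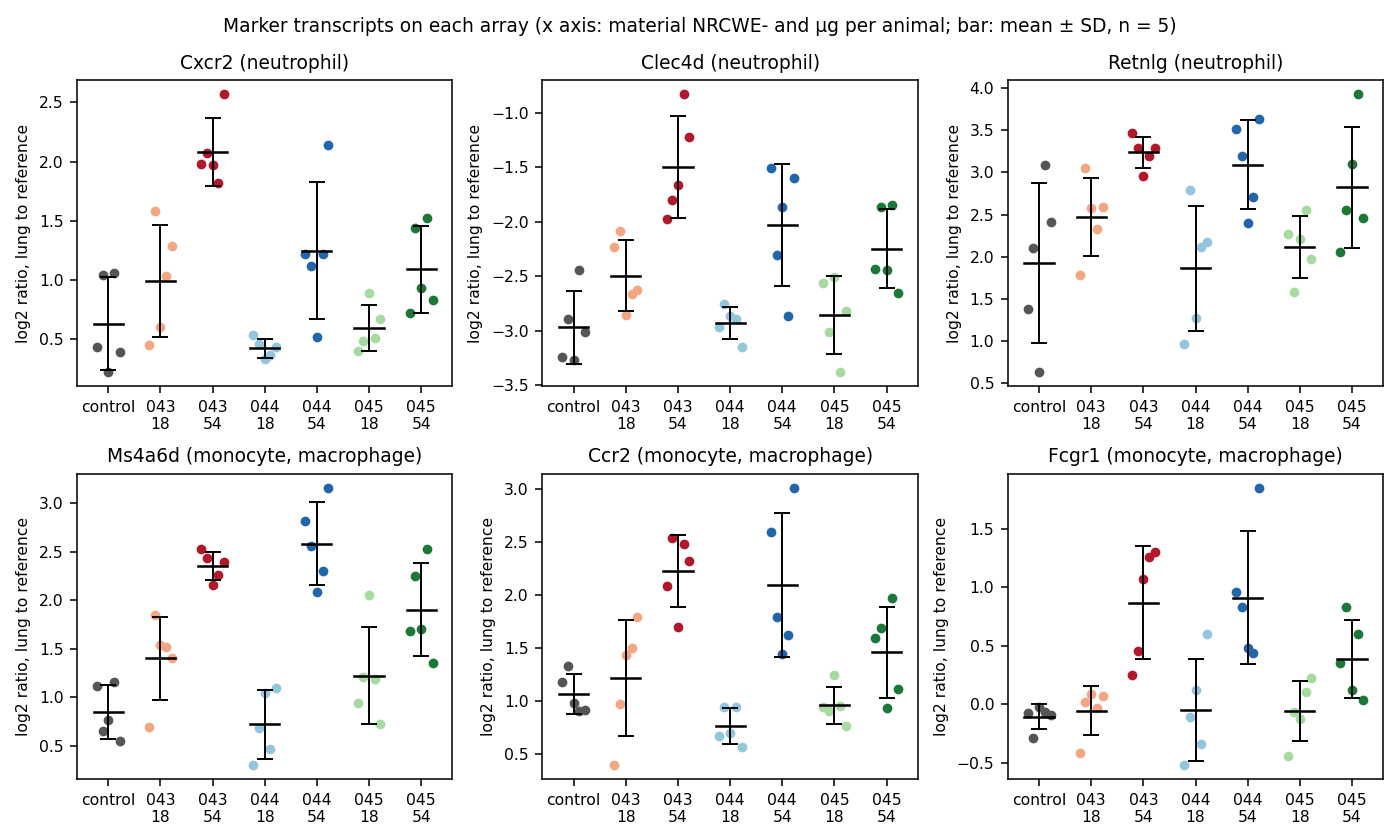
Log2 ratio of lung to reference RNA on each array for 3 neutrophil genes (Cxcr2, Clec4d, Retnlg) and 3 monocyte or macrophage genes (Ms4a6d, Ccr2, Fcgr1), by material and µg per animal; points are arrays, bars the mean ± SD of 5. For Cxcr2 the 5 arrays of NRCWE-043 at 54 µg lie between 1.82 and 2.57, above the controls at 0.22 to 1.06, and for Ms4a6d all 3 materials at 54 µg lie above the controls.

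Among monocyte genes, Ms4a6d, a membrane protein of the MS4A family found on monocytes and macrophages, was the member called with every material at 54 µg. The controls gave 1.12, 0.65, 0.77, 1.16 and 0.55, and NRCWE-043 at 54 µg gave 2.53, 2.43, 2.16, 2.26 and 2.39. NRCWE-044 gave 2.82, 2.56, 2.08, 2.30 and 3.16 and NRCWE-045 gave 1.68, 2.25, 1.70, 2.53 and 1.35 at that dose. Every array at 54 µg lay above every control. The rises were 1.50 (SE 0.23, adjusted p = 8.6e-05), 1.73 (SE 0.23, adjusted p = 3.3e-05) and 1.05 (SE 0.23, adjusted p = 0.038), which are 2.84-, 3.33- and 2.07-fold. The call with NRCWE-045 ended without any 1 of control replicates 2, 7, 15 or 30 or its own replicates 8, 14, 28 or 32 (adjusted p from 0.053 to 0.16). It also ended with slide as a fixed block (1.02, adjusted p = 0.052) and with only the compared groups in the model (adjusted p = 0.072). The lung channel alone (adjusted p = 0.11), median centring (adjusted p = 0.56) and the factor to a common median ended it as well. The lower dose gave 0.70, 1.85, 1.54, 1.52 and 1.41 with NRCWE-043, 0.30, 0.69, 1.05, 0.47 and 1.10 with NRCWE-044 and 0.94, 1.21, 2.05, 1.19 and 0.73 with NRCWE-045, none of them called.

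Ccr2, which brings monocytes out of the marrow along CCL2 and CCL7, rose with NRCWE-043 and NRCWE-044. It gave 1.18, 1.33, 0.98, 0.90 and 0.91 on the controls and 2.08, 2.53, 1.70, 2.48 and 2.32 with NRCWE-043 at 54 µg. With NRCWE-044 it gave 2.59, 1.79, 1.44, 1.62 and 3.01 and with NRCWE-045 1.59, 1.69, 0.93, 1.97 and 1.11 at that dose. The first 2 groups lay wholly above the controls and the last overlapped them. The changes were 1.16 (SE 0.24, adjusted p = 0.0017), 1.03 (SE 0.24, adjusted p = 0.0076) and 0.40 (SE 0.24, adjusted p = 0.68). At 18 µg the values were 0.39, 0.97, 1.43, 1.50 and 1.79 with NRCWE-043, 0.67, 0.94, 0.70, 0.94 and 0.56 with NRCWE-044 and 0.94, 0.90, 1.24, 0.95 and 0.76 with NRCWE-045, none of them called.

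Receptors of patrolling monocytes and of macrophage growth did not pass the test. Cx3cr1, the fractalkine receptor of patrolling monocytes and interstitial macrophages, gave 1.96, 3.20, 2.53, 3.26 and 3.17 on the controls and 3.29, 3.59, 3.01, 3.75 and 4.39, 2.74, 2.65, 3.35, 3.15 and 4.01 and 2.99, 2.74, 2.34, 3.76 and 3.41 with NRCWE-043, NRCWE-044 and NRCWE-045 at 54 µg. Its changes were 0.78 (SE 0.32, adjusted p = 0.12), 0.36 (SE 0.32, adjusted p = 0.61) and 0.23 (SE 0.32, adjusted p = 0.92), with overlap in each. At 18 µg it gave 1.91, 2.53, 2.94, 3.24 and 3.61, 1.43, 2.34, 2.62, 2.58 and 2.11 and 2.47, 2.39, 2.26, 3.00 and 3.15 with the same materials.

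Csf1r, the receptor for the macrophage growth factor, gave 1.33, 1.61, 1.78, 1.62 and 1.76 on the controls and 1.32, 1.52, 1.65, 1.78 and 1.56, 1.46, 1.55, 1.43, 1.37 and 1.65 and 1.31, 1.56, 1.34, 1.80 and 1.42 with NRCWE-043, NRCWE-044 and NRCWE-045 at 54 µg. Its arrays were close together and all groups overlapped. The changes were -0.06 (SE 0.12, adjusted p = 0.84), -0.13 (SE 0.12, adjusted p = 0.63) and -0.13 (SE 0.12, adjusted p = 0.84), none called. At 18 µg it gave 1.17, 1.18, 1.65, 1.31 and 1.47, 1.02, 1.36, 1.66, 1.52 and 1.43 and 1.35, 1.38, 1.67, 1.56 and 1.77. Adgre1, which encodes F4/80 on macrophages, changed by 0.57 (SE 0.25, adjusted p = 0.15) with NRCWE-043 at 54 µg and Lyz2, lysozyme of myeloid cells, by -0.33, and neither was called with any material against control.

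Receptors for microbial products and opsonised particles rose in part. Cd14, the coreceptor for endotoxin, gave -0.81, -1.56, -1.15, -0.62 and -0.98 on the controls and 0.35, -0.32, -0.63, -0.31 and 0.34 with NRCWE-043 at 54 µg. With NRCWE-044 it gave 0.31, 0.06, 0.84, 0.28 and 0.80 and with NRCWE-045 -0.29, 0.30, 0.16, -0.10 and -0.03. Both of the last groups lay above all controls, and NRCWE-043 overlapped them on 1 array. The changes were 0.91 (SE 0.25, adjusted p = 0.017), 1.48 (SE 0.25, adjusted p = 4.1e-04) and 1.03 (SE 0.25, adjusted p = 0.061), so NRCWE-045 was not called although its arrays lay apart from the controls. The NRCWE-043 call ended without its replicate 3 or 22 (adjusted p 0.055 and 0.053), and the NRCWE-045 change was called without control replicate 29 (adjusted p = 0.03). At 18 µg Cd14 gave -1.10, -0.70, -0.47, -0.10 and -0.25, -0.85, -0.28, -0.55, -1.06 and 0.35 and -0.33, -0.38, 0.81, -0.26 and -0.62 with NRCWE-043, NRCWE-044 and NRCWE-045, called in none, although all NRCWE-045 arrays lay above the controls.

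Fcgr1, the high-affinity Fc receptor of monocytes and macrophages, rose by 0.97 (SE 0.22, adjusted p = 0.0044) and 1.02 (SE 0.22, adjusted p = 0.0044) with NRCWE-043 and NRCWE-044 at 54 µg, without overlap, from -0.11 ± 0.11 to 0.87 ± 0.48 and 0.91 ± 0.57 (SD, n = 5 each). Its arrays with NRCWE-045 also lay above all controls, at 0.49 (SE 0.22, adjusted p = 0.46), not called. Fcgr4, another Fc receptor, was not called, at -0.09, -0.32 and -0.36. Plac8, a small cytosolic protein of inflammatory monocytes and other myeloid cells, rose by 0.95 (SE 0.25, adjusted p = 0.011) and 1.07 (SE 0.25, adjusted p = 0.0068) with NRCWE-043 and NRCWE-044, without overlap, and lay above all controls with NRCWE-045 at 0.86 (SE 0.25, adjusted p = 0.12). Without replicate 19 the NRCWE-043 call of Plac8 ended (adjusted p = 0.055).

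Msr1, the scavenger receptor of macrophages, passed the filter through treated groups only: its probe lay well above background on 1 of 5 control arrays and on all 5 of NRCWE-043 and of NRCWE-044 at 54 µg. The controls gave -1.08, -0.50, -0.88, -0.85 and -1.08, NRCWE-043 -0.33, -0.18, -0.01, 0.75 and -0.05 at 54 µg and -0.62, -0.30, -0.72, -0.93 and -0.59 at 18 µg. NRCWE-044 gave -0.26, -0.49, -0.42, -0.65 and -0.10 at 54 µg and -0.96, -0.98, -0.74, -1.34 and -0.82 at 18 µg, and NRCWE-045 gave -0.46, -0.28, -1.11, -0.81 and -1.00 and -0.64, -0.98, -0.93, -1.09 and -1.18. NRCWE-043 at 54 µg lay wholly above the controls, and the others overlapped them. The change there was 0.92 (SE 0.17, adjusted p = 5.6e-04), and 0.50 (SE 0.17, adjusted p = 0.081) with NRCWE-044. A probe that entered through the groups where it was high, against controls mostly at background, had to differ, so these values and its other calls are descriptions and support nothing. Without Msr1, 6 of 12 monocyte and macrophage genes rose and 1 fell with NRCWE-043 at 54 µg.

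F13a1, the coagulation factor XIII subunit of monocytes and tissue macrophages, was the member raised by NRCWE-043 at the lower dose. It was 1.20 ± 0.25 in controls, 2.05 ± 0.21 at 18 µg and 2.06 ± 0.43 at 54 µg of NRCWE-043 (SD, n = 5 each). The changes were 0.86 (SE 0.18, adjusted p = 0.0042), without overlap, and 0.86 (SE 0.18, adjusted p = 0.0018), with overlap. With NRCWE-044 and NRCWE-045 at 54 µg they were 0.26 (SE 0.18, adjusted p = 0.46) and -0.21 (SE 0.18, adjusted p = 0.83), not called. Ms4a4c, a relative of Ms4a6d, fell with NRCWE-043 on its brightest probe, by 0.57 (SE 0.13, adjusted p = 0.0093) at 18 µg and 0.62 (SE 0.13, adjusted p = 0.0023) at 54 µg, and its probes disagreed.

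At 18 µg few members were called against control. With NRCWE-043, where 4.19% of all features were called, 1.35% higher and 2.84% lower, the calls were falls of Csf3r and Itgam among neutrophil genes, a rise of F13a1 and a fall of Ms4a4c. For Itgam and Ms4a4c these are falls of the brightest probe only. The neutrophil count was 1 without control replicate 2 or 30, and the monocyte and macrophage count was 1 without control replicate 30. The median changes were 0.07 and 0.02 for the 2 lists against 0.00 over all features. With NRCWE-044 and NRCWE-045 at 18 µg limma called 0 members and 0 of 25534 features, with 2764 and 709 features at an unadjusted p under 0.05, and the list medians lay between -0.20 and 0.04.

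The difference between doses was tested within each material. With NRCWE-044, 6.52% of features were called, 4.92% higher at 54 than at 18 µg and 1.6% lower. There 6 neutrophil genes were higher (Cxcr2, Ncf1, Ncf4, Clec4d, Retnlg and Il1rap) and 6 others (Ccr2, Cd14, Fcgr1, Ms4a6d, Plac8 and Msr1). Msr1 lay well above background on 1 of 5 arrays at 18 µg, and without it 5 of 12 others were higher. Ms4a6d differed by 1.86 (SE 0.23, adjusted p = 9.3e-06), Plac8 by 1.61 (SE 0.25, adjusted p = 9.1e-05) and Ccr2 by 1.33 (SE 0.24, adjusted p = 6.2e-04), without overlap of the doses. With NRCWE-043, 1.16% were called, 0.916% higher and 0.239% lower. There 3 neutrophil genes (Cxcr2, Clec4d and Clec4e) and 6 others (Ccr2, Fcgr1, Ms4a6d, Plac8, Adgre1 and Msr1) were higher at 54 µg. Without Msr1, 5 of 12 others were higher. Cxcr2 differed by 1.09 (SE 0.22, adjusted p = 0.013) and Adgre1 by 1.11 (SE 0.25, adjusted p = 0.024), both without overlap. With NRCWE-045 limma called 0 members and 0 features, 976 at an unadjusted p under 0.05, and the difference of Ms4a6d, Plac8 and Ccr2 was at most 0.68.

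These dose calls rested on single arrays more than those against control. None of the 9 with NRCWE-043 held whichever array was left out: without replicate 5 of the 18 µg group both counts were 0. The neutrophil count was 5 without replicate 33 of the 18 µg group and 1 without replicate 16, 19 or 22 of the 54 µg group, and the other count was 3 without replicate 10 at 18 µg and 2, 1, 0 and 2 without replicates 9, 16, 19 and 22 at 54 µg. With NRCWE-044, 1 of the 6 neutrophil calls and 4 of the 6 others held against every omission, and the neutrophil count was 3 without replicate 4 and 1 without replicate 34 of the 54 µg group. Without replicates 4, 18 and 34 together these counts were 0 and 1.

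The materials were compared directly at matched doses, 6 comparisons in all. They are named by code and their differences in structure are not given here. Between NRCWE-045 and NRCWE-044 limma called 0 members at either dose, with 0 features called at 54 µg (1541 at an unadjusted p under 0.05) and 115 at 18 µg, 0.45% of all, 0.364% higher and 0.0862% lower. At 54 µg NRCWE-045 minus NRCWE-044 differed for Ms4a6d by -0.68 (SE 0.23, adjusted p = 0.57) and for Ccr2 by -0.63 (SE 0.24, adjusted p = 0.65), and a p that misses the threshold does not show that they act alike.

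Both NRCWE-044 and NRCWE-045 differed from NRCWE-043 at 54 µg in Cxcr2, Csf3r, Itgam, Ms4a4c and F13a1, comparisons that share the NRCWE-043 arrays. For Itgam this is the brightest probe only. Its probe A_55_P1977929 had means of 1.53 with NRCWE-043, 1.58 with NRCWE-044 and 1.16 with NRCWE-045 at that dose. Of all features, 7.6% were called between NRCWE-044 and NRCWE-043, 5.44% higher and 2.16% lower, and 5.39% between NRCWE-045 and NRCWE-043, 3.89% higher and 1.5% lower. NRCWE-044 was higher for Csf3r, Itgam and Ms4a4c and lower for Cxcr2, at -0.84 (SE 0.22, adjusted p = 0.014), and F13a1, at -0.60 (SE 0.18, adjusted p = 0.033). NRCWE-045 was higher for Csf3r, Itgam and Ms4a4c and lower for Cxcr2, Ncf1, Clec4d, Il1rap, F13a1 and Msr1, among which Cxcr2 differed by -0.99 (SE 0.22, adjusted p = 0.0043) and F13a1 by -1.07 (SE 0.18, adjusted p = 1.6e-04), both without overlap. The direction of Ms4a4c, whose reference signal moved on this probe, turned with the lung channel alone, to -0.52 for NRCWE-044 and -0.57 for NRCWE-045, and for NRCWE-045 also with the mean over probes, to -0.09. The call of Cxcr2 for NRCWE-044 ended without replicate 22 of NRCWE-043 or replicate 24 of NRCWE-044 (adjusted p 0.06 and 0.068). The count of monocyte and macrophage calls for NRCWE-044 fell from 2 to 1 without any 1 of replicates 9, 19 or 22 of NRCWE-043 or 18, 24 or 31 of NRCWE-044, each time by F13a1. The neutrophil count for NRCWE-045 fell from 6 to 3 without replicate 19 of NRCWE-043 or replicate 35 of NRCWE-045. Leaving out Msr1, 1 of 12 monocyte and macrophage genes was higher and 1 lower with NRCWE-045 than with NRCWE-043.

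At 18 µg Csf3r, Itgam and Ms4a4c were again higher, and F13a1 lower, with NRCWE-044 and NRCWE-045 than with NRCWE-043. For Itgam this again holds for the brightest probe. On A_55_P1977929 the means were 0.71 with NRCWE-043, 0.56 with NRCWE-044 and 0.70 with NRCWE-045. Of all features, 10.9% were called between NRCWE-044 and NRCWE-043, 5.35% higher and 5.59% lower, and 8.52% between NRCWE-045 and NRCWE-043, 6% higher and 2.52% lower. Csf3r was higher by 1.01 (SE 0.14, adjusted p = 8.0e-06) with NRCWE-044 and 0.70 (SE 0.14, adjusted p = 8.0e-04) with NRCWE-045, without overlap. F13a1 was lower, at -0.71 (SE 0.18, adjusted p = 0.0083) and -1.13 (SE 0.18, adjusted p = 6.0e-05), again without overlap. Il1rap was lower with NRCWE-044, at -0.61 (SE 0.13, adjusted p = 0.0013), and Trem1 higher with NRCWE-045, at 0.61 (SE 0.14, adjusted p = 0.0047). Each of these 10 calls held whichever array was left out. The direction of Ms4a4c turned with the lung channel alone, to -0.34 with NRCWE-044 and -0.30 with NRCWE-045, and for NRCWE-044 also with the mean over probes, to -0.51.

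Of the tested members 8 had more than 1 tested probe, and for 6 of them the probes correlated positively over the 35 arrays. The log2 ratios of the 2 probes of Camp correlated at 0.97, of Plac8 at 0.88, of Cx3cr1 at 0.86, of Msr1 at 0.81 and of Adgre1 at 0.70, and the 3 of Csf1r at 0.55 to 0.75; the probes share arrays and RNA, and these are descriptions. The sign of the change against control was shared in all 6 comparisons for the probes of Msr1, in 5 for Plac8 and Adgre1 and in 4 for Camp and Cx3cr1. The brightest probe of Csf1r shared its sign with the others in 3 and 2 of 6. The second probe of Adgre1 rose with NRCWE-043 at 54 µg by 0.69 (SE 0.19, adjusted p = 0.016), adjusted over all 34326 tested probes, of which 8.77% were called there. The second probe of Msr1, at 0.45 (SE 0.14, adjusted p = 0.036), lay well above background on 14 of 35 arrays and on 0 of 5 controls, and it too was tested through treated groups. That of Plac8 changed by 0.42 (SE 0.22, adjusted p = 0.26) and was not called. The further probes of Il1rap and F13a1 were too dim to test.

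Itgam and Ms4a4c had probes of opposite direction. For Itgam, the brightest, A_55_P1977934, fell with NRCWE-043 at 54 µg by 1.34 (SE 0.22, adjusted p = 1.4e-04). On A_55_P1977929 the same arrays gave 1.24, 1.34, 1.05, 2.48 and 1.56 against 0.86, 0.70, 0.42, 1.00 and 0.74 on the controls, all above the controls, a rise of 0.79 (SE 0.21, adjusted p = 0.016). That probe also rose with NRCWE-044, by 0.84 (SE 0.21, adjusted p = 0.016), where 5.01% of all probes were called. The third, A_55_P1977926, rose by 0.25 (SE 0.08, adjusted p = 0.049) with NRCWE-043, where it lay well above background on 2 of 5 arrays. The brightest probe correlated with the other two at -0.15 and -0.41 over the 35 arrays.

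For Ms4a4c, the brightest probe, A_55_P2135980, correlated at -0.56 and -0.27 with the others, which correlated with each other at 0.83. On A_66_P106388 NRCWE-043 at 54 µg gave 2.00, 2.10, 2.00, 2.55 and 2.57 against 0.73, 1.71, 0.94, 1.77 and 0.92 on the controls, all above them. The rise was 1.03 (SE 0.25, adjusted p = 0.0068), and 1.06 (SE 0.25, adjusted p = 0.0086) with NRCWE-044. A_55_P2135986 rose by 1.12 (SE 0.36, adjusted p = 0.047) with NRCWE-043, from 2.57 ± 0.97 to 3.70 ± 0.46 (SD, n = 5 each), with overlap. So the direction of these genes with NRCWE-043 depended on the probe. With the mean over probes neither fall was called, and Itgam changed by -0.10 (adjusted p = 0.69) and Ms4a4c by 0.51 (adjusted p = 0.074). The reference signal of A_55_P2135986 and A_66_P106388 was well above background on 0 and 1 of the 35 arrays, so their ratios rest on a dim denominator. The same holds for other members: the reference signal was well above background on 1 array for Fpr2, 2 for Ltf, 3 for Ccr2, 9 for Ngp, 10 for Cxcr2, 10 for Retnlg and 18 for Cx3cr1.

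**Figure D3:**
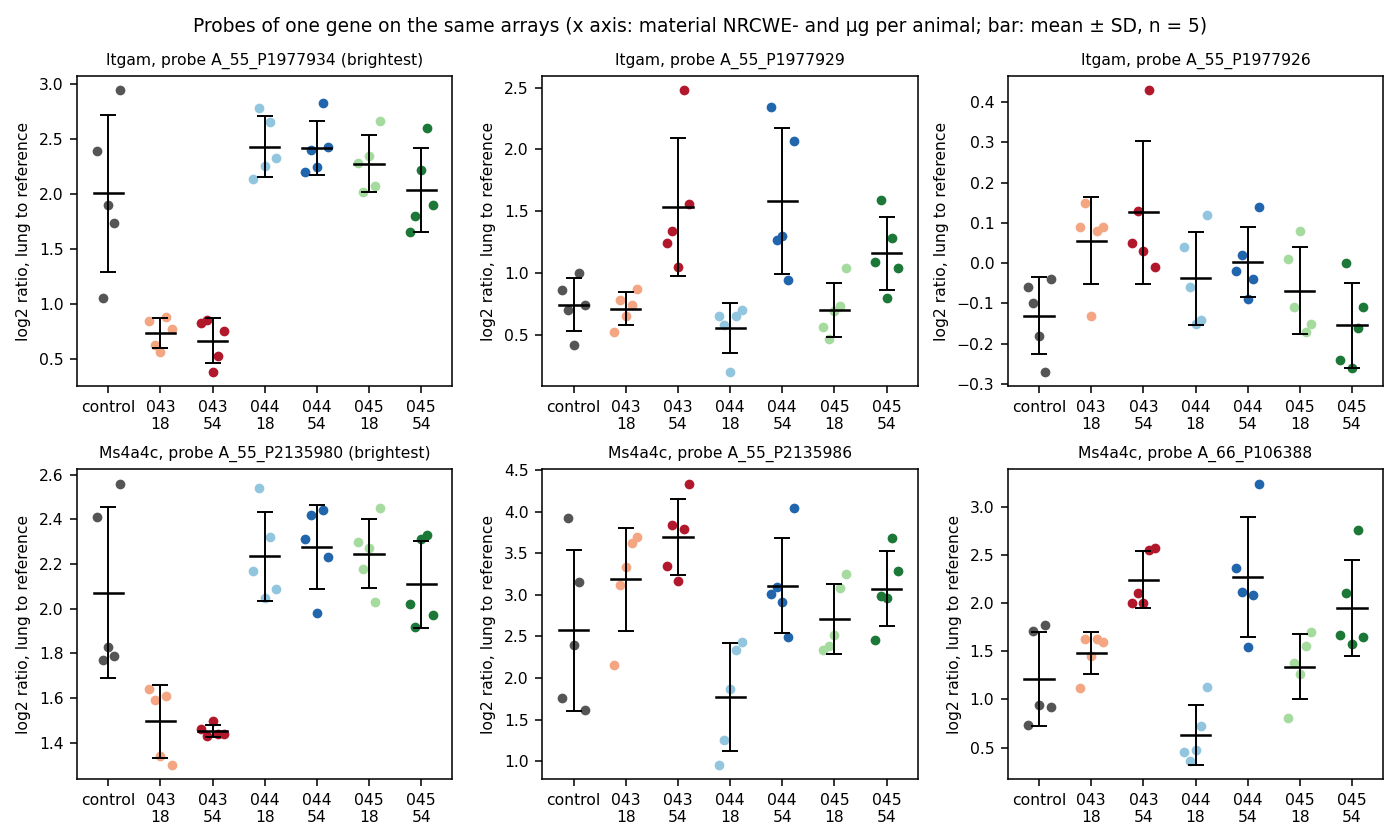
Log2 ratio of lung to reference RNA on each array for the 3 tested probes of Itgam and the 3 of Ms4a4c, by material and µg per animal; points are arrays, bars the mean ± SD of 5. The brightest probe of each gene is low on the 10 NRCWE-043 arrays, at 0.38 to 0.88 for Itgam, whereas on the 54 µg arrays A_55_P1977929 and A_66_P106388 are above the controls.

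Because every array carries the same reference RNA, its Cy3 signal alone should not follow the groups, and it was fitted by itself. Of the 42 member probes 1 was called between NRCWE-043 at 54 µg and control, among 112 of 34326 probes in all, 0.326%. This was A_55_P2135980 of Ms4a4c, whose reference signal was higher by 1.26 (SE 0.22, adjusted p = 0.0015), at 12.33 ± 0.28 against 11.06 ± 0.77 (SD, n = 5 each, log2 signal). Its lung signal changed by 0.52 (SE 0.17, adjusted p = 0.054), so its fall as a ratio came with a rise of the reference. At 18 µg the reference signal of this probe was also higher, by 1.01 (SE 0.22, adjusted p = 0.043), among 0.213% of all probes. The brightest probe of Itgam had a reference change of -0.88 (SE 0.30, adjusted p = 0.90) and a lung change of -2.00 (SE 0.34, adjusted p = 4.5e-04). For Csf3r these were 0.15 (SE 0.08, adjusted p = 1) and -0.62 (SE 0.12, adjusted p = 0.0019), and for S100a9 0.68 (SE 0.17, adjusted p = 0.095) and 1.20 (SE 0.38, adjusted p = 0.053). For NRCWE-044 and NRCWE-045 at 54 µg the reference changes of the 42 probes lay between -0.25 and 0.30 and 0 were called, among 0 of 34326. Which step moved the reference signal was not tested.

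**Figure D4:**
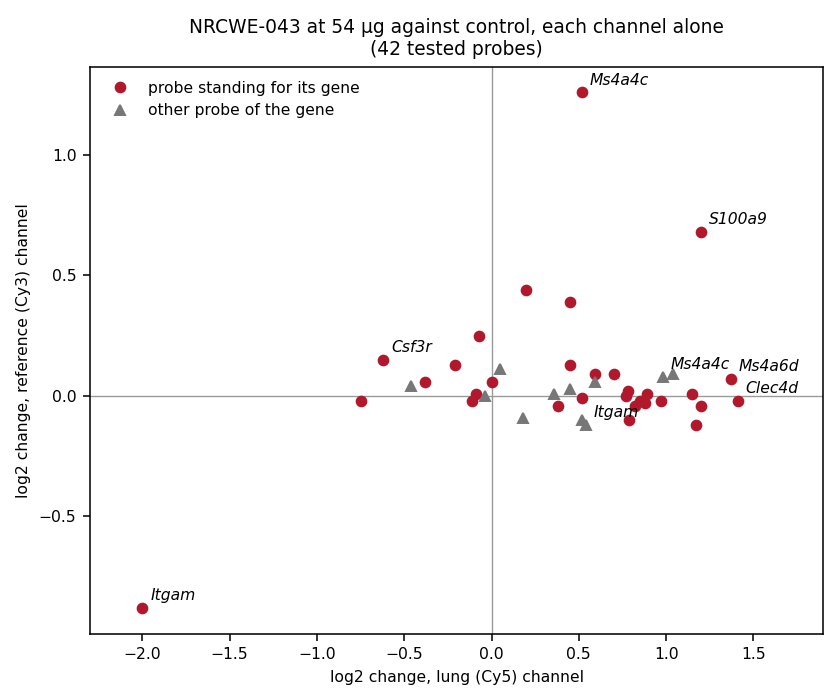
Change between NRCWE-043 at 54 µg and control for the 42 tested probes of members, with the lung (Cy5) channel on the x axis and the reference (Cy3) channel on the y axis, both log2 and each fitted alone on 5 arrays a group. Most probes lie near 0 in the reference, while Ms4a4c A_55_P2135980 stands at 1.26 and Itgam A_55_P1977934 at -0.88.

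Further genes of the same cells were tested beside the members. Of 22 tested other neutrophil genes, 7 rose and 1 fell with NRCWE-043 at 54 µg, 6 rose with NRCWE-044 and 0 were called with NRCWE-045. Cd177, a surface protein of neutrophils, rose by 1.07 (SE 0.14, adjusted p = 1.6e-05) and 0.93 (SE 0.14, adjusted p = 1.1e-04), and Il1r2, the decoy interleukin 1 receptor, by 1.57 (SE 0.33, adjusted p = 0.0017) and 1.17 (SE 0.33, adjusted p = 0.025), with NRCWE-043 and NRCWE-044. Of 23 tested other monocyte and interstitial macrophage genes, 7 rose with NRCWE-043, 8 with NRCWE-044 and 1 with NRCWE-045, none falling. Among them Fcgr3, a low-affinity Fc receptor, rose by 0.95 (SE 0.20, adjusted p = 0.0019) and 0.98 (SE 0.20, adjusted p = 0.0023), and C1qb, a complement subunit made by tissue macrophages, by 0.94 (SE 0.22, adjusted p = 0.0049) and 0.75 (SE 0.22, adjusted p = 0.034). Thbs1, thrombospondin 1, was the gene called with all 3 materials, at 1.03, 0.90 and 1.23.

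Ligands of the member receptors were measured beside them. Of 18 tested, 9 rose with NRCWE-043, 11 with NRCWE-044 and 4 with NRCWE-045 at 54 µg, and the 4 were Ccl2, Ccl7, Ccl12 and Il1b. Ccl12, a ligand of Ccr2, rose by 1.38 (SE 0.24, adjusted p = 3.2e-04), 1.44 (SE 0.24, adjusted p = 3.9e-04) and 1.08 (SE 0.24, adjusted p = 0.039). Among ligands of Cxcr2, Cxcl3 rose by 0.59 (SE 0.16, adjusted p = 0.017) and 0.88 (SE 0.16, adjusted p = 9.1e-04) with NRCWE-043 and NRCWE-044, Cxcl1 rose by 1.38 (SE 0.40, adjusted p = 0.033) with NRCWE-044 and was not called with NRCWE-043, at 0.90 (SE 0.40, adjusted p = 0.16), and Cxcl2 was too dim to test. Cxcl3 lay well above background on 13 arrays of the series, and in which groups is not given here. It may have passed the filter through treated groups only, so its rises are descriptions. Csf1, a ligand of Csf1r, rose with NRCWE-043 and NRCWE-044 by 0.55 (SE 0.12, adjusted p = 0.0032) and 0.54 (SE 0.12, adjusted p = 0.006).

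Markers of other cells that a lung piece could hold were counted in the same way. Of 13 alveolar macrophage markers 4 fell and 0 rose with NRCWE-043 at 54 µg, among them Ear1 at -1.16 (SE 0.35, adjusted p = 0.029). With NRCWE-044 at that dose 2 rose and 2 fell. Of all features, 5.33% were higher and 4.88% lower with NRCWE-043, and 3.92% higher and 2.02% lower with NRCWE-044. The mean log2 ratio of these markers was 3.06 to 3.74 on the NRCWE-043 arrays at 54 µg and 3.48 to 3.81 on the controls. Of 6 tested mast cell, basophil and eosinophil markers Prg2 and Ccr3 rose with NRCWE-044. There the list's mean ran from 0.27 to 1.34 against 0.12 to 0.30 in controls. Prg2 and Ccr3 lay well above background on 14 and 20 arrays of the series, and in which groups is not given here. They may have passed the filter through treated groups only, so their rises are descriptions. Epx, Ms4a2, Fcer1a and Mcpt8 were not above background on enough arrays. Of 10 lymphocyte markers 0 were called, with means of 0.09 to 1.07 in controls and 0.37 to 1.20 at 54 µg. The part of these cells in the members' changes was not tested.

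Each slide of arrays held several groups, and the changes were also taken within slides. Within slides that held controls, the median change of the neutrophil genes with NRCWE-043 at 54 µg was 0.30 to 0.85 on 2 slides and that of the monocyte and macrophage genes 0.46 to 0.83. With NRCWE-044 they were 0.05 to 0.48 and 0.04 to 0.53 on 3 slides, and with NRCWE-045 -0.09 to 0.35 and 0.12 to 0.41 on 4. Ms4a6d rose within every slide that had both groups, by 1.44 to 1.64 with NRCWE-043, 1.75 to 1.94 with NRCWE-044 and 0.54 to 1.98 with NRCWE-045, most of these resting on 1 array against 1 or 2.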

How the data were processed

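Lung RNA (200 ng) in Cy5 and a universal mouse reference in Cy3 were hybridised together on each of 35 arrays, per the labels. Spot intensities and their flags were, per the file headers, extracted with Agilent Feature Extraction 11.0.1.1. The deposited series values are log2 ratios; the sources used here do not give their normalization. They correlated at 0.994 to 1.00 (median 0.997) with loess ratios made without background subtraction, and served as an alternative. Here, intensities were corrected with normexp (offset 50) and loess-normalized within arrays in limma 3.58.1 under R 4.3.3 with data.table (version 1.17.8). Control spots had no weight, marked spots were left out, and spots of a probe were averaged. Testing needed a Cy5 signal well above background on 3 or more of a group's 5 arrays, in any group, which left 34326 probes, and the brightest stood for its gene. Accessions were named through RefSeq of GRCm38.p6.

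One limma model over all 35 arrays gave 15 comparisons, adjusted within each over 25534 features. Every member is accounted for, with all arrays printed for the 4 neutrophil and 4 other members of smallest adjusted p against control and for S100a8, S100a9, Cxcr2, Csf3r, Itgam, Ccr2, Csf1r, Cx3cr1 and Cd14, and a test for those called. The members, lists and this rule were chosen with earlier results of these data known. Alternatives changed the background correction, normalization, filter, probe summary, spots, slides, arrays in the fit and the channel, and dropped each array once. The 5 named so in the closing section were chosen after seeing the data. The fit was also run on simulated data.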

Additional observations from a re-analysis of the deposited data

Results flagged for a closer look

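Among 217 sets of 5 arrays, 8 held an array that lay far from the other 4 of its group, and chance gives about 1 in 20. These were Fpr1 on replicate 13 of NRCWE-045 at 18 µg (log2 ratio 2.13, others 3.27 to 3.57), Fpr2 on replicate 4 of NRCWE-044 at 54 µg (1.15, others 2.12 to 2.38) and Ngp on replicate 11 of NRCWE-044 at 18 µg (2.07, others 0.03 to 0.53). Hdc on replicate 3 of NRCWE-043 at 54 µg stood at 4.11 (others 4.67 to 4.77) and Il1rap on replicate 6 of NRCWE-044 at 18 µg at -0.44 (others 0.04 to 0.21). Cd14 on replicate 13 of NRCWE-045 at 18 µg stood at 0.81 (others -0.62 to -0.26). Fcgr1 stood at -0.29 on control replicate 7 (others -0.09 to -0.02) and at -0.41 on replicate 5 of NRCWE-043 at 18 µg (others -0.03 to 0.09).

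The rest are differences between doses or between materials with a limma adjusted p under 0.05, on the log2 scale. Between 54 and 18 µg of NRCWE-043 they were 1.09 for Cxcr2, 1.00 for Clec4d, 0.67 for Clec4e, 1.00 for Ccr2, 0.92 for Fcgr1, 0.95 for Ms4a6d, 0.99 for Plac8, 1.11 for Adgre1 and 0.67 for Msr1. Between 54 and 18 µg of NRCWE-044 they were 0.82 for Cxcr2, 0.50 for Ncf1, 0.84 for Ncf4, 0.89 for Clec4d, 1.23 for Retnlg, 0.47 for Il1rap, 1.33 for Ccr2, 0.93 for Cd14, 0.96 for Fcgr1, 1.86 for Ms4a6d, 1.61 for Plac8 and 0.58 for Msr1.

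For NRCWE-044 minus NRCWE-043 at 54 µg the differences were -0.84 for Cxcr2, 1.01 for Csf3r, 1.75 for Itgam, 0.82 for Ms4a4c and -0.60 for F13a1. For NRCWE-045 minus NRCWE-043 at 54 µg they were -0.99 for Cxcr2, 0.76 for Csf3r, 1.37 for Itgam, -0.47 for Ncf1, -0.75 for Clec4d, -0.46 for Il1rap, 0.66 for Ms4a4c, -1.07 for F13a1 and -0.77 for Msr1. At 18 µg NRCWE-044 minus NRCWE-043 gave 1.01 for Csf3r, 1.69 for Itgam, -0.61 for Il1rap, 0.74 for Ms4a4c and -0.71 for F13a1. NRCWE-045 minus NRCWE-043 at 18 µg gave 0.70 for Csf3r, 1.54 for Itgam, 0.61 for Trem1, 0.75 for Ms4a4c and -1.13 for F13a1.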

How the results depend on the processing

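No paired analysis was possible because each array has a number of its own in the labels. Normalization changed the calls most, and the cause was not tested. With median centring in place of loess the neutrophil counts were 3 (NRCWE-043 at 54 µg against control), 0 (NRCWE-044 at 54 µg), 0 (NRCWE-043 at 18 µg), 0 and 0 (54 against 18 µg of NRCWE-043 and NRCWE-044), 1 and 1 (NRCWE-044 and NRCWE-045 against NRCWE-043 at 54 µg) and 0 and 0 (the same at 18 µg), and the neutrophil median with NRCWE-043 at 54 µg was 0.62. The monocyte and macrophage counts were 3, 1 and 0 (NRCWE-043, NRCWE-044 and NRCWE-045 at 54 µg), 0 (NRCWE-043 at 18 µg), 0 and 2 (doses of NRCWE-043 and NRCWE-044), 0 (NRCWE-044 against NRCWE-043 at 54 µg) and 0 and 1 (NRCWE-044 and NRCWE-045 against NRCWE-043 at 18 µg). This setting moved the median of all features with NRCWE-043 at 54 µg to 0.13. With the factor to a common median every count was 0, and this setting cannot show how firm the calls are. The neutrophil medians were then 0.71 and 0.96 (NRCWE-043 and NRCWE-044 at 54 µg), -0.72 (NRCWE-043 at 18 µg) and 1.74 (NRCWE-045 at 18 µg), and the others 1.69 and -0.11 (NRCWE-044 and NRCWE-045 at 54 µg), -0.31 (NRCWE-043 at 18 µg) and 1.30 (NRCWE-045 at 18 µg). Reversed there were Clec4d at -0.10 (NRCWE-044 at 54 µg), -0.41 and -0.56 (doses of NRCWE-043 and NRCWE-044), Clec4e at -1.10 (NRCWE-044 at 54 µg) and -1.16 (doses of NRCWE-043), and F13a1 at 0.37 (NRCWE-045 against NRCWE-043 at 18 µg).

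With Cy5 alone, the neutrophil counts were 1 (NRCWE-043 at 18 µg) and 3 (NRCWE-045 against NRCWE-043 at 54 µg), and the others 0 (NRCWE-045 at 54 µg), 1 (NRCWE-043 at 18 µg), 0 (NRCWE-044 against NRCWE-043 at 54 µg), and 1 and 1 (NRCWE-044 and NRCWE-045 against NRCWE-043 at 18 µg). Ms4a4c reversed to 0.52 and 0.37 (NRCWE-043 at 54 and 18 µg) and to -0.52, -0.57, -0.34 and -0.30 (NRCWE-044 and NRCWE-045 against NRCWE-043 at 54, then 18 µg), having no reference in the ratio. With the mean over probes it reversed to 0.51, 0.11, -0.09 (NRCWE-045 against NRCWE-043 at 54 µg) and -0.51 (NRCWE-044 against NRCWE-043 at 18 µg), the counts for NRCWE-043 at 18 µg were 1 and 1, and 1 monocyte or macrophage gene was called in each of 3 comparisons of materials (NRCWE-044 against NRCWE-043 at both doses, NRCWE-045 at 18 µg). With only the compared groups in the model, the neutrophil counts were 3 (NRCWE-044 at 54 µg), 0 (NRCWE-043 at 18 µg), 1 and 1 (doses) and 5 (NRCWE-044 against NRCWE-043 at 54 µg), and the others 0 (NRCWE-043 at 18 µg), 0 (doses of NRCWE-043) and 1 (NRCWE-044 against NRCWE-043 at 54 µg).

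The deposited values gave 3 neutrophil calls with NRCWE-044 at 54 µg. Slide as a random block (correlation 0.19) gave 6 neutrophil calls between doses of NRCWE-043 and 2 other calls with NRCWE-045 at 54 µg. As a fixed block it gave 3 neutrophil calls for NRCWE-045 against NRCWE-043 at 54 µg and 0 others with NRCWE-045 at 54 µg. A filter in every group gave 2 of the latter, and leaving out control replicates 7 and 29 gave 0. Without replicates 9 and 19 of NRCWE-043 at 54 µg, the dose counts were 0 and 0, the neutrophil count for NRCWE-045 against NRCWE-043 was 3 and the other count for NRCWE-044 against NRCWE-043 was 1. Without replicates 4, 18 and 34 of NRCWE-044 at 54 µg, the counts were 0 and 2 against control, 0 and 1 between doses, and 1 monocyte or macrophage gene against NRCWE-043. The 3 omissions of several arrays and the fits of single probes and of Cy3 alone were chosen after seeing the data.

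Leaving out 1 array at a time, the neutrophil counts ran from 1 to 6 (NRCWE-044 at 54 µg), 1 to 3 (NRCWE-043 at 18 µg), 0 to 5 and 1 to 7 (doses of NRCWE-043 and NRCWE-044) and 3 to 6 (NRCWE-045 against NRCWE-043 at 54 µg). The monocyte and macrophage counts ran from 0 to 2 (NRCWE-045 at 54 µg), 1 to 2 (NRCWE-043 at 18 µg), 0 to 6 (doses of NRCWE-043) and 1 to 2 (NRCWE-044 against NRCWE-043 at 54 µg). The neutrophil medians ran from 0.34 to 0.55 (NRCWE-043 at 54 µg) and -0.12 to 0.14 (NRCWE-045 at 18 µg). Removing background subtraction, keeping marked spots or dropping the filter moved no count of members by over 1.5 times.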
